A study of Mus musculus with 12 samples.

Results

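Transient receptor potential (TRP) channels are the cation channels through which sensory endings respond to heat, cold and irritants, and the genes of 8 of them (Trpv1, Trpv2, Trpa1, Trpm8, Trpm3, Trpm7, Trpc1 and Trpc6) are described here together with Pirt, which encodes a membrane protein that binds phosphoinositides and regulates TRP channels. The 9 genes were taken by symbol from a table of 22609 gene symbols, and all 9 were found in every library and passed the filter on low counts that left 13835 genes. The RNA came from trigeminal ganglion (TG) neurons of the mouse tongue. Wheat germ agglutinin coupled to a fluorophore (WGA-AF488), a tracer that nerve endings carry back to the cell body, was injected into the tongue of adult Balb/c athymic nude mice, and fluorescent cells were sorted from dissociated ganglia for SMART-seq2 libraries. There were 3 libraries in each of 4 groups, namely normal males (MN), males with a tongue tumor (MT), normal females (FN) and females with a tongue tumor (FT). Tumors were grown from 350000 HSC3 cells, a line of human oral squamous cell carcinoma. For all 4 groups the tracer was given on day 13 and ganglia were taken on day 15. The sample labels give the tracer at 0.5%, whereas the methods of the study give a higher strength. A normal library pooled 4 ganglia of 2 mice, and a tumor library pooled 4 ganglia of 4 mice, from the tumor side alone. All groups shared the nude background, whose mice lack mature T cells, and the tumor was always the same human line. The sample labels say that normal mice received no cells, whereas the methods of the study say that they received normal human keratinocytes, so which of the treatments the tumor groups are compared with is not settled. Libraries are named below by group and replicate, so that FN2 is the second FN library.

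Channels of the family differ in what opens them. TRPV1 responds to capsaicin, acid and noxious heat, TRPA1 to reactive irritants such as mustard oil, TRPM8 to cold and menthol, and TRPM3 to heat and the steroid pregnenolone sulfate. The sets of somatosensory neurons that carry these channels are not the same. The bulk RNA of sorted ganglion cells is thus a mixture in which each of these transcripts comes from some of the cells. A lower level in such a sample can come from fewer cells that carry the transcript or from less of it per cell, and the 2 cannot be told apart here.

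The depth was 4592891 to 8922011 gene-assigned reads per library. CPM below are a gene's counts scaled to a fixed total of these reads, and RPKM divides the CPM by the exon length of the gene in kilobases, which allows levels of different genes to be compared. In FN2, FT2 and FT3, reads that mapped to several places made up 56.0%, 68.4% and 52.6% of all reads, against 43.0% to 45.5% in the other 9 libraries. These 3 libraries hold the lowest values of most of the genes described, and results are given with and without them. Markers of sensory neurons were present in every library, since the 14 genes of that list summed to 15549 to 29938 CPM with none at 0. The 14 macrophage markers summed to 22.9 to 41.1 CPM in 5 of the 6 male libraries, to 279 CPM in MT3 and to 191 to 544 CPM in the 6 female libraries. The 8 satellite glia markers summed to 3539 to 5038 CPM in males and to 6636 to 17946 CPM in females.

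By RPKM, which is a level per length, the most abundant of the 9 genes in normal males was Pirt, at 479.9 ± 19.96 RPKM (SD, n = 3). Trpv1 followed at 53.7 ± 6.05 RPKM and Trpa1 at 53.7 ± 2.86 RPKM. Their ranges overlapped, and Trpv1 was above Trpa1 in 1 of 3 libraries. Trpv2, a relative of TRPV1 that opens at higher temperatures in expression systems, stood at 38.5 ± 1.20 RPKM. These 4 genes were followed by Trpc6 at 12.0 ± 2.11 RPKM and Trpm8 at 6.05 ± 1.19 RPKM. The last places went to Trpm7, a channel fused to a kinase, at 2.38 ± 0.235 RPKM, Trpm3 at 1.88 ± 0.138 RPKM and Trpc1 at 1.87 ± 0.140 RPKM. Apart from Trpv1 with Trpa1 and Trpm3 with Trpc1, no neighbours in this order overlapped in MN. Across the 9 libraries without FN2, FT2 and FT3, Trpa1 was above Trpv1 in 8 of 9 libraries (61.9 ± 11.6 and 55.9 ± 11.2 RPKM). Trpm8 lay above Trpm7 in 8 of 9. Trpc1 rested on few reads, between 7 and 52 per library, so its values are the least certain of the set.

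**Figure D1:**
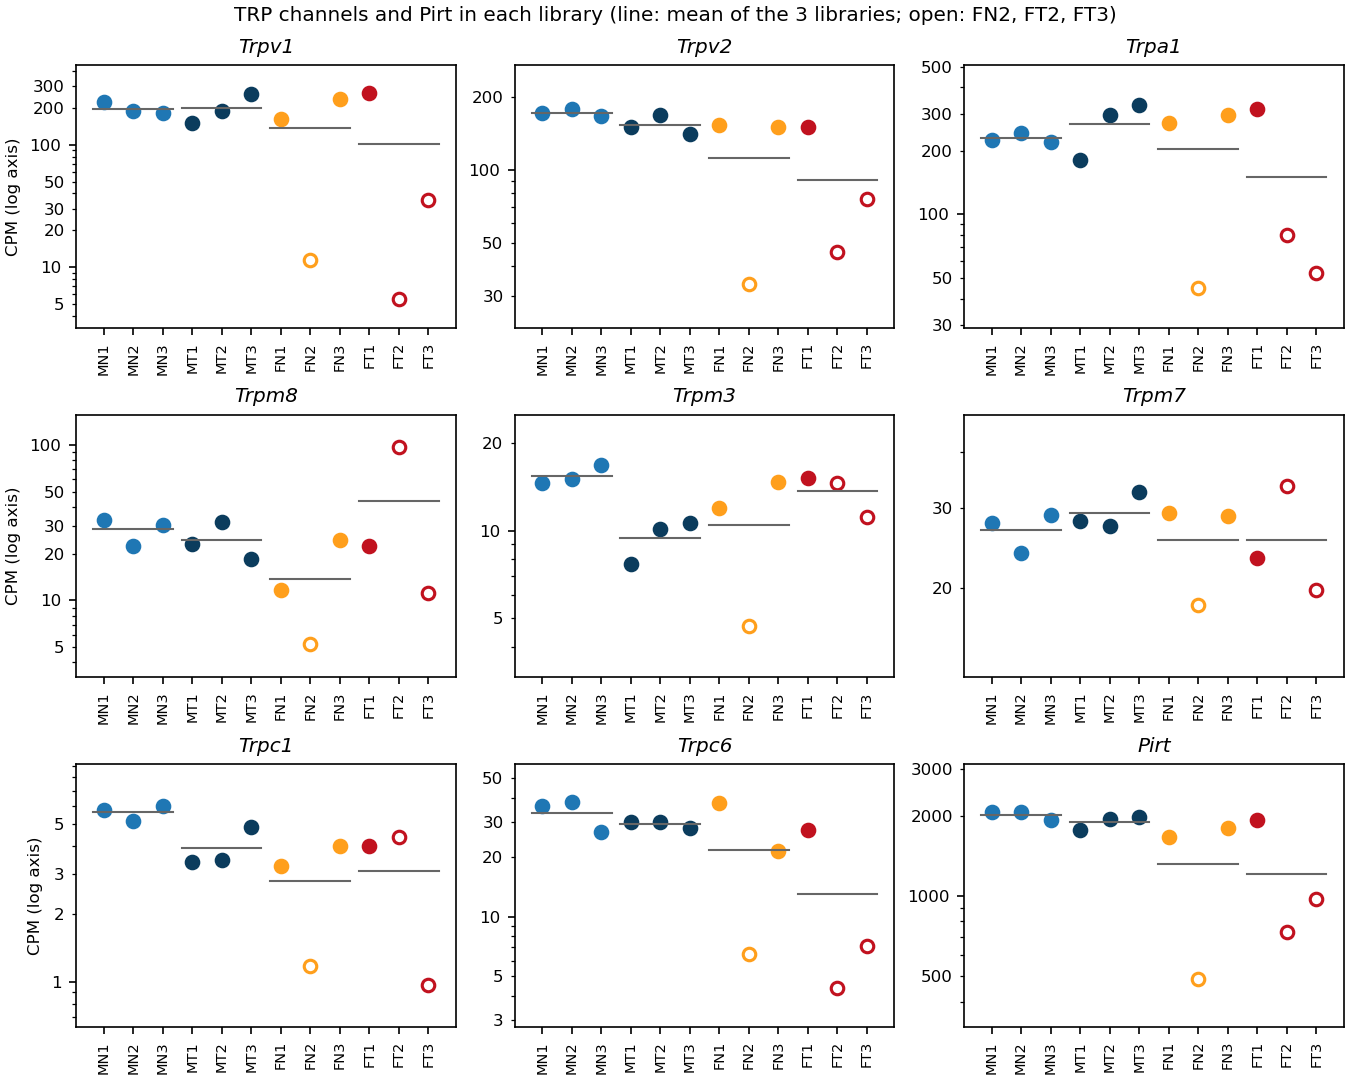
Level of each gene in CPM (log axis, scaled separately for each gene) in the 12 libraries, coloured by group, with a line at the mean of the 3 libraries of a group and open circles for FN2, FT2 and FT3. The 9 filled libraries of Pirt sit between 1667 and 2070.2 CPM, while FN2, FT2 and FT3 lie at 485, 732 and 968 CPM, and Trpm8 in FT2 stands above every other library at 96.0 CPM.

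Trpv1 lies at chr11:73047794-73074744 on the plus strand of mm9, the build to which the authors aligned the reads. Its level in MN was 223, 190 and 180 CPM. In MT it was 150, 188 and 260 CPM, in FN 163, 11.4 and 235 CPM, and in FT 263, 5.44 and 35.1 CPM. The 9 libraries outside FN2, FT2 and FT3 thus spanned 150 to 263 CPM with no group apart. By contrast, FT2 held 25 reads of this gene (5.44 CPM, exact 95% Poisson interval 3.52 to 8.04 CPM). Such an interval covers the counting error of reads and not the spread between libraries. It refers to reads and not to molecules, because the reads carry no molecular identifiers.

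The 250 bases before the RefSeq start of Trpv1, of Trpc6 and of Trpm8 are shown. The first pair were low in all of FN2, FT2 and FT3, whereas Trpm8 was low in FN2 and FT3 and high in FT2. Trpv2, Trpa1 and Pirt were also low in all of these libraries, so that trait is not particular to the first pair. The stretches come from the RefSeq promoter table (build GRCm38.p6), which held 7 of the 9 genes but not Trpa1 or Pirt. Each was also found without a mismatch in the mm9 genome. Both strands were searched for the letters of the TATA box (TATAAA), of the GC box bound by Sp1 (GGGCGG), of the CCAAT box and of the RUNX core (TGTGGT), and capitals mark their matches. In GRCm38.p6 the stretches are chr11:73233899-73234148, chr9:8543892-8544141 and chr1:88306485-88306734, all on the plus strand and written 5′ to 3′.
Trpv1: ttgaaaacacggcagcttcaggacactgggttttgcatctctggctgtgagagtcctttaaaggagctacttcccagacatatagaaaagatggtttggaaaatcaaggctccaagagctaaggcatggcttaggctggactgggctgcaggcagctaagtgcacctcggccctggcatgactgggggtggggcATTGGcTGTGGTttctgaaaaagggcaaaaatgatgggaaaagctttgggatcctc
Trpc6: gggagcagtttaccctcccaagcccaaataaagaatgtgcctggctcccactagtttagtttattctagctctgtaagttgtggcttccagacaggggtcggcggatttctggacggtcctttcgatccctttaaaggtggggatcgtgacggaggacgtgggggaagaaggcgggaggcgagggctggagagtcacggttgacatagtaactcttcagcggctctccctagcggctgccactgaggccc
Trpm8: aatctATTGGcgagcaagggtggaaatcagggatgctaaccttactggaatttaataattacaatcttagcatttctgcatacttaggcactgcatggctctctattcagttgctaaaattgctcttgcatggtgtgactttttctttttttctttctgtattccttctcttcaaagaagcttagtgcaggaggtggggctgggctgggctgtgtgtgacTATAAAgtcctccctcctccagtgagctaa
TATAAA began 30 bases before the start of Trpm8 and occurred in 12.4% of all 32851 promoter windows of the same length. TGTGGT began 50 bases before the start of Trpv1 (14.0% of windows). CCAAT was found as ATTGG in Trpv1, 56 bases before the start, and in Trpm8, 245 bases before it (33.8%). None of the 4 sets of letters was found in the window of Trpc6, and GGGCGG (32.7%) was in none of the 3. These matches describe letters and not bound sites. In mm9 the window of Trpm8 is chr1:90203060-90203309, which lies inside the gene as GENCODE annotates it (chr1:90174236-90285868), so the start in RefSeq is not the first one of that annotation.

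Trpa1 (chr1:14862729-14908943, minus strand) was read at 224, 243 and 219 CPM in MN and at 182, 296 and 328 CPM in MT. Values in FN were 270.1, 45.1 and 295 CPM, and in FT 316, 79.9 and 52.7 CPM. Among the 9 libraries, MT2, MT3, FN1, FN3 and FT1 were above all MN libraries, and MT1 was below them. Pirt (chr11:66725483-66743378, plus strand) was read at 2058, 2070.2 and 1919 CPM in MN, 1772, 1937 and 1977 CPM in MT, 1667, 485 and 1792 CPM in FN and 1926, 732 and 968 CPM in FT. All FN libraries were below all MN libraries, and the MT range overlapped that of MN. Over the 9 libraries the coefficient of variation was 7.07% for Pirt, 7.97% for Trpv2, 10.1% for Trpm7, and between 17.9% and 28.4% for the other 6 genes.

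Trpv2 (chr11:62387988-62414017, plus strand) was read at 172, 178 and 168 CPM in MN, at 151, 169.6 and 141 CPM in MT, at 153, 33.8 and 151 CPM in FN and at 150.2, 45.7 and 75.9 CPM in FT. MN2 was highest, and no FN or FT library reached the lowest MN library, an order whose share among all genes was not computed. Trpm8 was read at 33.0, 22.3 and 30.5 CPM in MN, at 23.1, 32.1 and 18.4 CPM in MT, at 11.7, 5.22 and 24.4 CPM in FN and at 22.4, 96.0 and 11.2 CPM in FT. FT2 held 441 reads of Trpm8, against 40 in FN2 and 80 in FT3. The Trpm8 row is uncertain in a further way, because 388 of its exon bases overlap 4930453O03Rik, an antisense transcript, and the strand setting of the counting is not given in the sources used here. None of the other 8 genes shared exon bases with another annotated gene.

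Trpm3 (chr19:22213609-23064374, plus strand) was read at 14.6, 15.0 and 16.8 CPM in MN, at 7.67, 10.1 and 10.6 CPM in MT, at 11.9, 4.70 and 14.7 CPM in FN and at 15.2, 14.6 and 11.2 CPM in FT. The 3 MT libraries were below every library of MN, FN1, FN3 and FT, and FN2 was lower still. Trpm7 (chr2:126617301-126701966, minus strand), which is expressed in most cell types, stayed within 18.3 to 33.5 CPM over the 12 libraries. Trpc6 (chr9:8544432-8680565, plus strand), a channel gated by diacylglycerol, was read at 36.1, 37.8 and 26.9 CPM in MN, at 29.9, 30.0 and 28.0 CPM in MT, at 37.3, 6.52 and 21.5 CPM in FN and at 27.6, 4.35 and 7.11 CPM in FT. Every FT value was below every MT value, FT1 by less than 1 CPM. Trpc1 (chr9:95607046-95650777, minus strand), which forms channels with other TRPC subunits, was read at 5.76, 5.16 and 5.97 CPM in MN, at 3.40, 3.47 and 4.82 CPM in MT, at 3.27, 1.17 and 3.97 CPM in FN and at 3.98, 4.35 and 0.976 CPM in FT. The MN values of Trpc1 were above all others, but the exact 95% Poisson intervals of MN2 (3.77 to 6.88 CPM) and MT3 (3.42 to 6.58 CPM) overlapped. The shares of all genes with the orders described for Trpm3 and Trpc1 over the 4 groups were not computed.

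Because the 3 libraries with many multi-mapped reads set most of the spread, their values were compared with the range of the other 9. FN2 was below that range for all 9 genes. The same was true of 49.9% of the 13835 genes, whose median in FN2 was 0.48 lower on the log2 scale than the median of the 9 libraries. FT3 was below the range for 8 genes and within it for Trpm3, against 41.2% of all genes below. FT2 was below it for Trpv1, Trpv2, Trpa1, Trpc6 and Pirt, above it for Trpm8 and Trpm7, and within it for Trpm3 and Trpc1, against 53.1% of all genes below and 26.4% above.

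Trpv1 was the gene that departed most. Relative to the median of the 9 libraries it was 16.7-fold lower in FN2, 34.9-fold lower in FT2 and 5.41-fold lower in FT3. Genes more than 10-fold below that median made up 4.27% of all genes in FN2 and 6.78% in FT2. Trpa1 was 5.98-fold, 3.38-fold and 5.13-fold lower in FN2, FT2 and FT3, Trpc6 4.59-fold, 6.87-fold and 4.21-fold lower, and Trpv2 4.53-fold, 3.35-fold and 2.02-fold lower. Pirt was 3.97-fold, 2.63-fold and 1.99-fold lower. Trpm8 was 4.43-fold lower in FN2, 2.07-fold lower in FT3 and 4.15-fold higher in FT2, where genes more than 3-fold higher made up 9.20% of all genes.

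**Figure D2:**
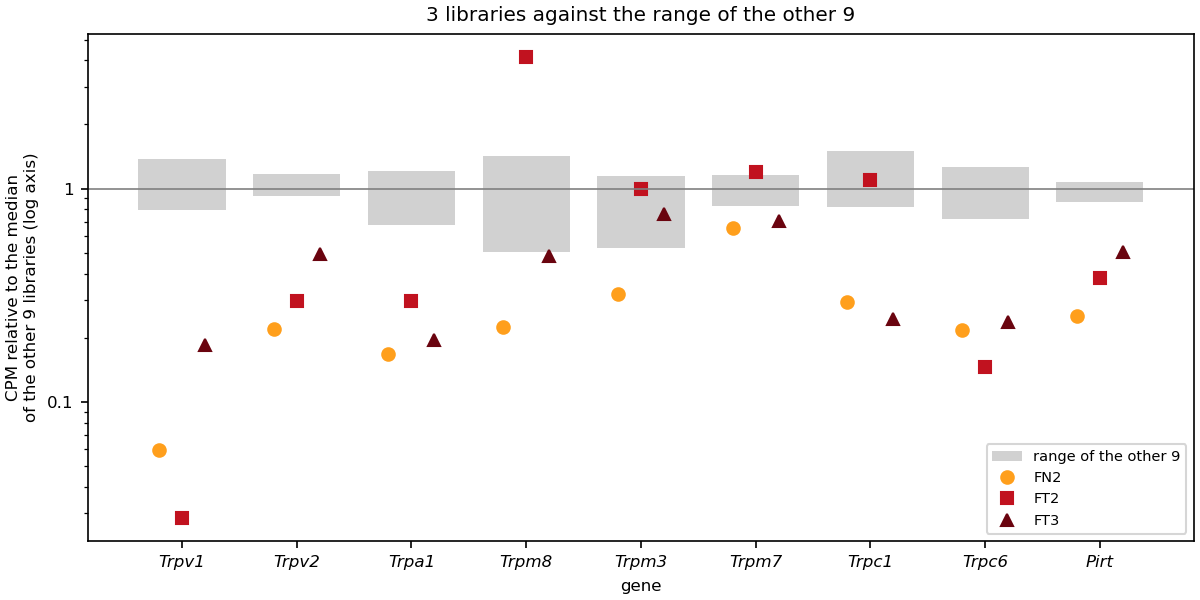
CPM of each gene in FN2, FT2 and FT3 divided by the median of the other 9 libraries (log axis), with the range of these 9 as a grey bar. Trpv1 lies 5.41-fold to 34.9-fold below the median in the 3 libraries, and Trpm8 lies 4.15-fold above it in FT2 alone.

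The channels were therefore not lowered in proportion. Trpv1 amounted to 9.67 to 15.6 RPKM for each 100 RPKM of Pirt in the 9 libraries, and to 2.67 in FN2, 0.848 in FT2 and 4.14 in FT3. Of the summed RPKM of the 8 channels, Trpv1 held 27.3% to 35.9% in the 9 libraries, 11.3% in FN2, 2.53% in FT2 and 20.2% in FT3. The share of Trpm8 was 1.52% to 4.02% in the 9 libraries, 4.05% in FN2, 5.00% in FT3 and 34.7% in FT2. The sum itself was 137 to 199 RPKM in the 9 libraries, 27.2 RPKM in FN2, 58.4 RPKM in FT2 and 47.2 RPKM in FT3.

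**Figure D3:**
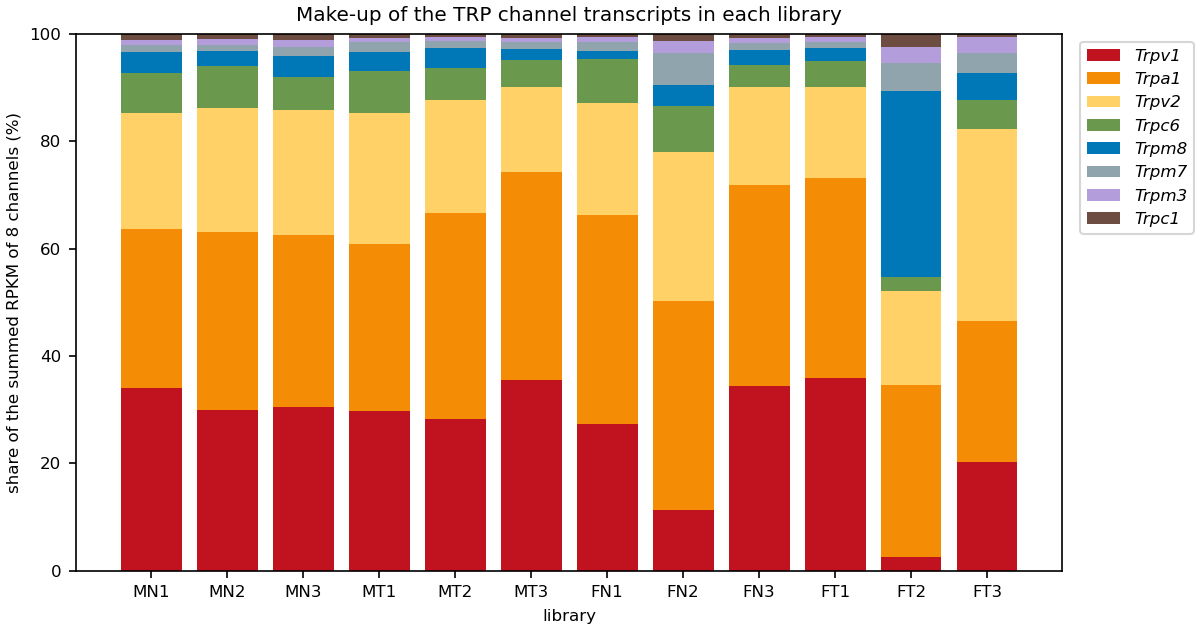
Share of each channel gene in the summed RPKM of the 8 channels, in percent, for the 12 libraries. Trpv1 and Trpa1 are the 2 largest shares in each of the 9 libraries with fewer multi-mapped reads, while in FT2 the share of Trpv1 is 2.53% and that of Trpm8 34.7%.

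Other neuronal genes of these libraries went in both directions. Calca and Tac1, which encode the peptides CGRP and substance P of nociceptors, were at 11272 and 2910.2 CPM in FN2, above their maxima of 4589 and 1168 CPM in the 9 libraries. Scn10a, the sodium channel Nav1.8 of nociceptors, was at 236 CPM in FN2, 337 CPM in FT2 and 373 CPM in FT3, under its minimum of 697 CPM. FT2 also held the highest Nefh (3134 CPM), Nefm (3846 CPM), Ntrk3 (155 CPM) and S100b (3969 CPM), genes of large myelinated neurons or glia, whose maxima in the 9 libraries were 1020.0, 1964, 51.6 and 587 CPM. Other listed markers of large-diameter neurons were mixed in FT2. Ntrk2, Pvalb and Runx3 were above their ranges, and Cntnap2, Calb1 and Ldhb were within theirs. Spp1 (16.1 CPM) and Fam19a1 (30.0 CPM) were below their minima of 31.8 and 32.9 CPM. Whether these genes or the multi-mapped reads have a part in the TRP values was not tested.

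The first comparison asked whether normal females and males differ. Pirt, Trpv2 and Trpc1 were lower in every FN library than in every MN library, and the other 6 genes overlapped. Lower values with no overlap were found for 10.2% of the 13360 genes tested outside the X and Y chromosomes, and for higher or lower values together the figure was 19.8%. The log2 fold change was -0.60 ± 0.40 (SE) for Pirt, -0.61 ± 0.44 for Trpv2 and -0.96 ± 0.56 for Trpc1. Trpm8, whose groups overlapped, had the largest, at -1.03 ± 0.70. All 9 were negative, with a median of -0.60 against 0.07 for all genes. Over the 9 libraries 7 were negative, and these medians were -0.24 and 0.002. None of the 9 genes had an adjusted p under 0.05 with edgeR, DESeq2 or limma-voom, and with edgeR none had an unadjusted p under 0.05, against 5.57% of all genes. Over all genes the calls at an adjusted p under 0.05 numbered 0 with edgeR (0%), 13 with DESeq2 and 800 with limma-voom.

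With FN2 left out, FN1 and FN3 stood below MN for Pirt, Trpv2 and Trpc1 and above MN for Trpa1 (270.1 and 295 CPM against 219 to 243 CPM). No overlap then held for 13.9% of genes in the lower direction and 23.2% in the higher one. In the fit of 9 libraries the log2 fold change was -0.27 ± 0.09 for Pirt (adjusted p = 0.18), -0.69 ± 0.30 for Trpc1 (adjusted p = 0.31), -0.72 ± 0.31 for Trpm8 (adjusted p = 0.31), -0.24 ± 0.11 for Trpv2 (adjusted p = 0.34) and 0.25 ± 0.18 for Trpa1 (adjusted p = 0.54). The value for Pirt is a 1.21-fold lower level, so the larger fold over the 12 libraries rests on FN2. Trpv1 was -0.55 ± 0.94 over the 12 libraries and -0.04 ± 0.20 over the 9. A fit of FN1, FN3 and the MN libraries alone, chosen after seeing the data, called 728 genes (5.53% of those tested) and none of the 9, of which Pirt came closest with an adjusted p of 0.066. In the same libraries the satellite glia markers summed to 8284 CPM in FN1 and 8241 CPM in FN3 against 4193 to 5038 CPM in MN, and those of macrophages to 440 and 191 CPM against 28.1 to 41.1 CPM. The sensory neuron list summed to 18984 and 19973 CPM in FN1 and FN3 and to 20313 to 22033 CPM in MN. The part of these cells in the lower Pirt, Trpv2 and Trpc1 was not tested.

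In males, the comparison of tumor with normal mice showed the lowest Trpm3 of the regular libraries in MT. Trpm3 and Trpc1 were lower in every MT library than in every MN library, against 7.32% of genes lower without overlap and 13.1% in either direction. The log2 fold change of Trpm3 was -0.69 ± 0.38 over the 12 libraries (adjusted p = 1.0), a 1.61-fold lower level, and that of Trpc1 was -0.52 ± 0.55. Trpv1 was within error of equal in MT and MN, at 0.02 ± 0.93, and Pirt at -0.07 ± 0.40. Trpa1 was at 0.24 ± 0.60, Trpm7 at 0.14 ± 0.34, Trpv2 at -0.15 ± 0.44, Trpc6 at -0.18 ± 0.55 and Trpm8 at -0.20 ± 0.69. None of the 9 was called at an adjusted p under 0.05 by edgeR, DESeq2 or limma-voom, and none had an unadjusted p under 0.05 with edgeR (0.426% of all genes). Calls over all genes numbered 0 with edgeR (0%), 2 with DESeq2 and 47 with limma-voom.

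No MN or MT library was among the 3 that stood apart, yet they shape this comparison through the spread that all groups share. Without them the fold changes were nearly the same and the errors smaller, with Trpm3 at -0.69 ± 0.18 (adjusted p = 0.33), Trpc1 at -0.51 ± 0.26, Trpa1 at 0.24 ± 0.16, Trpv2 at -0.15 ± 0.10 and Pirt at -0.07 ± 0.08. Limma-voom with quality weights gave Trpm3 an adjusted p of 0.088. Between MT libraries, macrophage markers summed to 279 CPM in MT3 and to 22.9 and 28.5 CPM in MT1 and MT2, while Trpm3 was 10.6 CPM in MT3 and 7.67 and 10.1 CPM in the others.

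**Figure D4:**
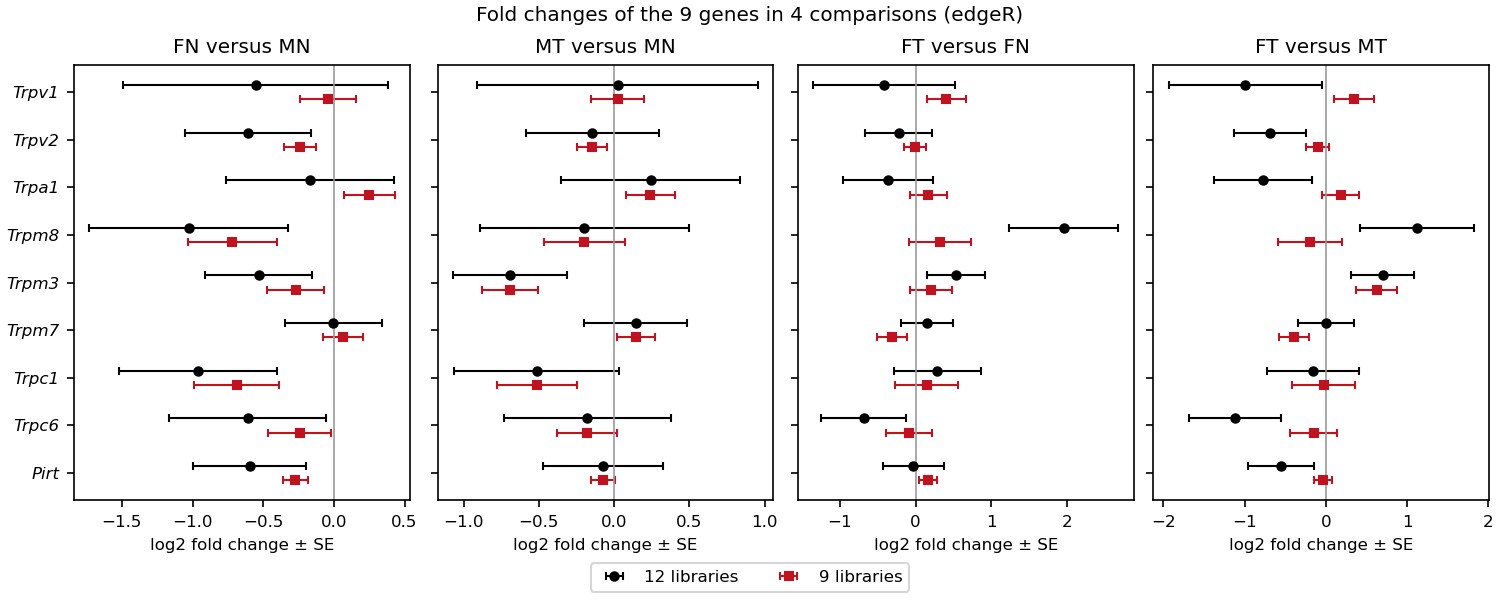
Log2 fold change with its standard error for each gene in 4 comparisons, fitted over the 12 libraries (black circles) and over the 9 without FN2, FT2 and FT3 (red squares). In FT versus FN, Trpm8 moves from 1.95 over the 12 libraries to 0.32 over the 9, where FT is FT1 alone and is assumed to vary like the other groups, and in MT versus MN Trpm3 stays at -0.69 with a smaller error.

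In females, tumor and normal mice overlapped for all 9 genes, as they did for all but 2.49% of genes. The largest fold change was that of Trpm8, with 22.4, 96.0 and 11.2 CPM in FT against 11.7, 5.22 and 24.4 CPM in FN, or a log2 fold change of 1.95 ± 0.72 (adjusted p = 0.99). It was the single gene of the 9 with an unadjusted p under 0.05, against 3.82% of all genes, and it met the criteria that the study set for differential expression, which asked for more than 1.5-fold, over 5 mean RPKM in either group and an unadjusted p below 0.05, as did 2.17% of all genes. In the same fit none of the 9 met these criteria in FN versus MN (3.69% of genes), in MT versus MN (0.152%) or in FT versus MT (8.14%). Other fits gave other calls, with Trpm8 meeting the criteria in FN versus MN over the 9 libraries (3.18% of genes) and Trpc6 in FT versus MT with DESeq2 (7.8%). The call of Trpm8 in FT versus FN was lost without FN1, without FN2, without FT2 and with the 10 and the 9 libraries. Without FT1, Trpv1, Trpa1 and Trpc6 met the criteria beside Trpm8, as did 9.77% of genes. In the fit of 10 libraries without FN2 and FT2 the log2 fold change of Trpm8 was -0.03 ± 0.41. In the fit of 9, in which FT1 was the only FT library, it was 0.32 ± 0.41. Over the 12 libraries Trpv1 was at -0.41 ± 0.94, Trpa1 at -0.36 ± 0.60, Trpc6 at -0.68 ± 0.56, Pirt at -0.03 ± 0.40 and Trpm3 at 0.54 ± 0.38. In the fit of 9 libraries Trpv1 was at 0.41 ± 0.26 and Trpa1 at 0.17 ± 0.24, so their direction turned. No gene of the 9 had an adjusted p under 0.05 by edgeR, DESeq2 or limma-voom, and of all genes these tools called 0 each (0% with edgeR).

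Between the tumor groups, Trpc6 was lower in every FT library than in every MT library and Trpm3 was higher, where 9.61% of genes were lower and 8.03% higher without overlap. The log2 fold change was -1.12 ± 0.57 for Trpc6 (adjusted p = 0.43) and 0.70 ± 0.38 for Trpm3 (adjusted p = 0.45). Trpv1 was at -0.99 ± 0.94, Trpa1 at -0.77 ± 0.60, Trpv2 at -0.69 ± 0.44, Pirt at -0.55 ± 0.40 and Trpm8 at 1.12 ± 0.70. None of the 9 had an unadjusted p under 0.05 with edgeR, against 12.1% of the 13360 genes, and DESeq2 gave an unadjusted p under 0.05 for Trpc6. At an adjusted p under 0.05 none was called by the 3 tools, which called 0 (0%), 241 and 0 of all genes with edgeR, DESeq2 and limma-voom. Without FT1, which leaves FT2 and FT3, edgeR called 755 genes (5.55% of those tested) and Trpc6 among them (log2 fold change -2.12 ± 0.54, adjusted p = 0.043). In that fit Trpv1, Trpa1, Trpv2 and Trpc6 met the criteria of the study, as did 20.2% of genes. Over the 9 libraries, where FT was FT1 alone, Trpc6 was at -0.15 ± 0.29 and Trpm3 at 0.63 ± 0.25 (adjusted p = 0.56), and Trpv1 and Trpa1 turned to 0.34 ± 0.24 and 0.18 ± 0.22.

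Whether the effect of the tumor differs between the sexes was tested as the difference between FT versus FN and MT versus MN. The differences of Trpm8 (2.15 ± 0.99) and Trpm3 (1.23 ± 0.54) had an unadjusted p under 0.05 among the 9 genes, against 1.47% of all genes with one, and the adjusted p was 1.0 for both. For Trpm8 the difference was 0.17 ± 0.52 without FN2 and FT2 and 0.52 ± 0.49 over the 9 libraries. For Trpm3 it was 0.77 ± 0.33 and 0.90 ± 0.33 (adjusted p = 0.94), both with an unadjusted p under 0.05, as had 5.87% and 5.1% of all genes, with group means of 15.5 CPM in MN, 9.48 CPM in MT, 13.3 CPM in FN1 and FN3 and 15.2 CPM in FT1. When 1 library at a time was left out of the 12, the unadjusted p of Trpm3 was no longer under 0.05 in 9 of 12 fits (without any MN or MT library, FN1, FN2 or FT2), and that of Trpm8 in 8 of 12 (the same libraries except MT2). Trpv1 was at -0.44 ± 1.32 and Trpa1 at -0.60 ± 0.84. At an adjusted p under 0.05 edgeR, DESeq2 and limma-voom each called 0 genes in this comparison (0% with edgeR).

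Of the 9542 genes with a mean of at least 10 CPM, those whose profile over the 12 libraries was nearest to a given gene were ranked by the root mean square difference of the 2 centred log2 CPM profiles. For Trpv1 the nearest were Aldh1a3 (0.24), Dck (0.38) and Nudt12 (0.39), where the median over all genes was 1.67. Aldh1a3 was between 11.7 and 27.5 CPM in the 9 libraries and at 0.522, 0.435 and 3.76 CPM in FN2, FT2 and FT3. Trpm8 had Atp2b3 (0.36), Rasgrf2 (0.38) and Wdr43 (0.39) as its nearest genes, with a median over all genes of 1.12. These genes were likewise high in FT2, as Rasgrf2 shows with 56.4 CPM there against 16.2 to 22.3 CPM in the 9 libraries. Dpf2, Epb4.9 and Gas6 came nearest to Trpv2 (0.085 to 0.11, median 0.75), and Txndc5, Flot2 and Ece2 to Pirt (0.086 to 0.094, median 0.67). The profiles share the libraries and their depth, and the ranking is a description.

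The other 20 genes of the TRP superfamily were all in the table, and 12 of them passed the filter. Mcoln1, a channel of lysosomes, was the most abundant at a mean of 42.9 RPKM, and Trpm4 (7.67 RPKM), Pkd2l2 (3.15 RPKM) and Trpc4 (1.87 RPKM) were also among its 5 most abundant genes. Mcoln1 was at 140 to 170.5 CPM in the 9 libraries and at 136, 96.9 and 188 CPM in FN2, FT2 and FT3, so it was below its range in FN2 and FT2, by far less than Trpv1, and above it in FT3. Trpv3, Trpv5, Trpm1, Trpm5, Mcoln3 and Pkd2l1 had no more than 3 reads in any library. None of the tested genes of this list had an adjusted p under 0.05 in the 5 comparisons. The median log2 fold change of the list in FT versus MT was -0.44, that of the 9 genes -0.55 and that of all genes 0.07. Over the 9 libraries, where FT was FT1 alone, these medians were -0.045, -0.039 and -0.014.

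Of 36 genes for regulators of TRP channels (phosphoinositide enzymes, kinases, scaffolds, partners and receptors that sensitize the channels), 35 passed the filter. Among the 5 most abundant were S100a10 (879 RPKM), which carries channels to the membrane, Snap25 (277 RPKM) and Fgf13 (244 RPKM). S100a10 was at 1841, 2227 and 1534 CPM in FN2, FT2 and FT3, above its range of 646 to 1007 CPM in the 9 libraries. Of all genes, 28.0%, 26.4% and 30.1% were above their ranges in these 3 libraries. Fgf13 went the other way, at 357, 290 and 731 CPM against 1067 to 1314 CPM in the 9 libraries. Snap25 was also lower, at 1092, 713 and 1721 CPM against 1814 to 2569 CPM. No regulator had an adjusted p under 0.05 over the 12 libraries. With edgeR the unadjusted p was under 0.05 for Csf1r, a receptor of macrophages, in FN versus MN (3.00 ± 1.19) and for S100a10 in FT versus MT, both higher in females. In FN1 and FN3 against MN alone, adjusted p values were under 0.05 for Csf1r (3.57 ± 0.40, adjusted p = 0.00034), which was higher, and for Plcb3 (-0.46 ± 0.09, adjusted p = 0.0081) and Prkcd (-0.48 ± 0.10, adjusted p = 0.015), a phospholipase and a protein kinase C that act upstream of TRP channels, which were lower. Csf1r is itself among the 14 macrophage markers. It was at 69.1 CPM in FN1 and 26.6 CPM in FN3 but at 1.96 CPM in FN2, against 2.30 to 6.61 CPM in MN, and at 7.67 CPM in FT3, where the macrophage sum was highest. The part of macrophages in the regulator values was not tested.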

How the data were processed

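RNA of sorted, WGA-positive trigeminal neurons was sequenced in 12 libraries, 3 per group. The authors processed base calls with CASAVA 1.8.2, aligned reads to mm9 with TopHat2 and counted them on genes with HTSeq. The deposited values are whole, unnormalized read counts per gene symbol. Other versions, the annotation and the strand setting are not given in the sources used here. Between 76.3% and 88.8% of reads were assigned to no gene and left out of library sizes. RPKM used exon lengths of GENCODE M1, which matched 95.7% of the symbols. The model was a quasi-likelihood fit of edgeR 4.0.16 under R 4.3.3 (TMM, filterByExpr with a minimum count of 10 and a minimum total of 15) with 1 model of 12 libraries and 4 groups, and p values were adjusted by Benjamini-Hochberg over all genes tested. X and Y genes were left out between the sexes. Alternatives included DESeq2 1.42.0 and limma-voom (limma 3.58.1). The scripts were first tested on simulated data, and all values given come from the deposited counts. The labels describe replicates as independent pools of animals, and the model did not pair libraries by replicate number. The genes, the gene lists and the libraries left out were chosen with earlier results of these data known. The text names all 9 genes, the 5 most abundant and any called gene of each list (some of which are not reported here), and the 3 nearest profiles of Trpv1, Trpm8, Trpv2 and Pirt. Other genes named were chosen after their values were seen. Calculations used Python 3.11.15, numpy 2.4.6, pandas 2.3.3, scipy 1.17.1 and matplotlib 3.10.9.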

Additional observations from a re-analysis of the deposited data

How the results depend on the processing

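The counts of called genes and 34 fold changes were recomputed under 22 settings. At an adjusted p under 0.05, 0 of the 9 genes were called in the 5 comparisons under these settings, except 1 in FT versus MT without FT1 (Trpc6), so that leaving out single libraries gave 0 to 1 there. By the criteria of the study the count was 1 in FT versus FN (Trpm8, kept in 13 of 20 alternatives and lost under limma-voom, the block, the 10 and the 9 libraries and without FN1, FN2 or FT2). They were also met by Trpm8 in FN versus MN in 4 of 21 alternatives (limma-voom, 9 and 5 libraries, without FT2). In FT versus MT they were met by Trpc6 in 4 of 20 (DESeq2, the block, without FN2 or FT1), by Trpv2 without FN2 or FT1, by Trpv1 and Trpa1 without FT1 and by Trpm8 without FT3. In FT versus FN without FT1 they were met by Trpv1, Trpa1 and Trpc6. Of 684 recomputed fold changes 651 kept their direction and their side of the threshold, 32 reversed and 1 gained an adjusted p under 0.05. The cause of each change was not tested.

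Over the 9 libraries without FN2, FT2 and FT3, the log2 fold change reversed to 0.25 for Trpa1 in FN versus MN, to 0.41 for Trpv1, 0.17 for Trpa1 and 0.16 for Pirt in FT versus FN, to 0.34 for Trpv1, 0.18 for Trpa1 and -0.20 for Trpm8 in FT versus MT, and to 0.38 for Trpv1 in the difference between the sexes. Over the 10 libraries without FN2 and FT2 it reversed to 0.25 for Trpa1 in FN versus MN, -0.030 for Trpm8 in FT versus FN and -0.55 for Trpm8 in FT versus MT. With limma-voom it reversed to 0.23 for Trpa1 in FN versus MN, -0.035 for Trpv1 and 0.0093 for Trpm8 in MT versus MN and -0.39 for Trpm8 in FT versus MT. For Pirt in FT versus FN it became 0.0224 with DESeq2, 0.0223 with its size factors and 0.0067 in a fit of only these groups, and for Trpa1 in FN versus MN it was 0.25 with the 5 libraries of FN1, FN3 and MN, a setting chosen after seeing the data.

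Leaving out 1 library at a time gave -0.51 to 0.27 for Trpa1 in FN versus MN, -0.18 to 0.17 for Trpv1 in MT versus MN, -2.55 to 0.21 for Trpv1, -1.31 to 0.036 for Trpa1 and -0.39 to 0.21 for Pirt in FT versus FN, -0.56 to 1.59 for Trpm8 in FT versus MT and -2.57 to 0.19 for Trpv1 in the difference between the sexes.

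Samples with the same replicate number did not deviate together in every pair, with correlations of 0.03, 0.13 and 0.20 between MN and MT and of 0.57, 0.21 and -0.35 between FN and FT. Unlike numbers gave -0.26 to 0.19 between MN and MT and -0.65 to 0.61 between FN and FT. Deviations from a mean of 3 libraries depend on each other, so these values do not settle whether the numbers pair samples. With the replicate number as a block, 0 of the 9 genes had an adjusted p under 0.05 in each comparison. By the criteria of the study Trpm8 lost its call in FT versus FN (log2 fold change 1.58) and Trpc6 gained one in FT versus MT (-1.40), and in the difference between the sexes Trpm3 and Trpm8 no longer had an unadjusted p under 0.05.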
